A study of Mus musculus with 15 samples.

Results

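IL6Myc-1 and IL6Myc-5 are mouse myeloma cell lines of the genotype IL6Myc, and their transcriptomes were compared directly, IL6Myc-1 over IL6Myc-5. Sequencing covered 3 technical replicates per line, so 6 of the 15 libraries of the study entered the comparison and the other 9, from IL6Myc-2, IL6Myc-3 and IL6Myc-4, served to estimate the technical spread and to show which of the lines stood apart. Libraries were assigned by their cell line label, and the comparison was chosen with earlier results of these data known. Both lines carry the same genotype name. The labels used here name no treatment, no age and no individual alleles. No normal plasma cell was part of the panel, and each line is 1 biological unit, so the p-values measure the spread between technical replicates and not between mice or between independent cultures.

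Multiple myeloma is a cancer of plasma cells, the antibody-secreting end stage of the B cell lineage. Interleukin-6 is a growth factor of these cells that signals through JAK kinases and STAT3, and MYC drives their growth. Survival of myeloma cells depends strongly on BCL2 family proteins, above all on MCL1, and the cells are under constant load from the folding of secreted antibody in the endoplasmic reticulum.

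The IL6Myc-1 libraries held 41165599, 25205985 and 20004713 estimated counts, and the IL6Myc-5 libraries held 25392648, 19068543 and 26715316. Levels are CPM, counts scaled to a common size with TMM library factors, so that a level compares libraries for 1 gene and not genes of different length. Pearson's r across genes was 0.996 between IL6Myc-1 libraries, 0.994 to 0.995 between IL6Myc-5 libraries and 0.947 to 0.95 between the lines. The nuclear transcript Malat1 took 0.1001% to 0.175% of the counts in IL6Myc-1 and 0.0575% to 0.0688% in IL6Myc-5, and the ribosomal transcript Rn18s took 0.188% to 0.352% in IL6Myc-1 and 0.132% to 0.283% in IL6Myc-5.

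Central genes of the plasma cell programme were well expressed in both lines, with small differences between them. Xbp1, the transcription factor of the secretory programme, averaged 1681 ± 41.9 CPM in IL6Myc-1, against 1757 ± 84.9 CPM in IL6Myc-5 (SD, n = 3 each, as for all values below). Prdm1, which represses the B cell programme, averaged 175 ± 2.16 CPM in IL6Myc-1, against 181 ± 6.92 CPM in IL6Myc-5. Jchain, the joining chain of IgA, averaged 6425 ± 197 CPM in IL6Myc-1, against 6098 ± 383 CPM in IL6Myc-5. For Xbp1, Prdm1, Jchain and Myc the test between the lines did not pass the threshold (edgeR's quasi-likelihood test, adjusted p = 0.141, 0.327, 0.1 and 0.138). Irf4, a transcription factor on which myeloma cells depend, averaged 1013 ± 34.5 CPM in IL6Myc-1, against 1200 ± 35.7 CPM in IL6Myc-5 (log2 difference -0.24, edgeR adjusted p = 9.03e-06). Sdc1, which encodes the plasma cell marker CD138, averaged 356 ± 10.3 CPM in IL6Myc-1, against 314 ± 3.15 CPM in IL6Myc-5 (log2 difference 0.18, edgeR adjusted p = 0.000326). Of the 16 plasma cell genes tested, 13 passed the adjusted p at any size, 6 lower and 7 higher in IL6Myc-1, and 3 also passed the 2-fold threshold. Over all genes tested, 65.5% passed the adjusted p at any size and 14.6% passed both thresholds. Myc was at 1248, 1340 and 1370 CPM in IL6Myc-1 and at 1490, 1499 and 1255 CPM in IL6Myc-5, and these ranges overlapped. Il6 was at 0 counts throughout, under a limit of 3 counts per line (0.0332 CPM for IL6Myc-1, 0.0427 CPM for IL6Myc-5, counting error only).

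The same variable segments led the immunoglobulin transcripts of both lines. Igkv4-68 took 99.9 ± 0.0121% of the kappa V segment counts in IL6Myc-1 and 99.8 ± 0.0126% in IL6Myc-5. Ighv11-2 took 96.1 ± 0.982% of the heavy chain V segment counts in IL6Myc-1 and 93.8 ± 0.854% in IL6Myc-5. Igkv4-68 was also abundant in the 3 other lines, at 10500 to 35752 CPM. Ighv11-2 reached only 8.64 ± 0.47 CPM in IL6Myc-1, against 12.04 ± 0.539 CPM in IL6Myc-5, so the heavy chain share rests on far fewer counts than the kappa share. In the 3 other lines Ighv11-2 lay at 9.07 to 18.7 CPM. These levels are far below that of Igha, so the share does not show that the lines express the same heavy chain. Reads of V segments with close relatives can be split among them. All immunoglobulin genes and Jchain together took 5.71 ± 0.198% of the counts in IL6Myc-1 and 7.27 ± 0.151% in IL6Myc-5, with Igha at 21712 ± 1133 CPM in IL6Myc-1, against 30100 ± 1167 CPM in IL6Myc-5.

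Across all genes the lines differed widely. Of 11773 genes tested, 1714 (14.6%) were called, that is, they differed at least 2-fold and passed edgeR's quasi-likelihood test at 0.05 after Benjamini-Hochberg adjustment. Of these, 660 (5.61% of the genes tested) were higher and 1054 (8.95%) were lower in IL6Myc-1. At any size, 7713 genes (65.5%) passed the adjusted p, and for 7879 (66.9%) the libraries of the lines did not overlap. Replicates of a line varied with a median biological coefficient of variation of 0.0639, and differences well under 2-fold passed the test for many genes. The median log2 difference of all genes was -0.00, and the median absolute one was 0.34.

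The called genes with the largest differences were mostly lower in IL6Myc-1. At least 4-fold differences were seen for 718 called genes, 518 lower and 200 higher in IL6Myc-1. Set against the 12 libraries outside each line, 469 of the 1054 lower genes (44.5%) were below all of them in IL6Myc-1 while IL6Myc-5 lay within the range of its own 12. For 157 (14.9%) IL6Myc-5 was the line that stood apart, for 84 both did, and for 344 neither did. The corresponding numbers among the 660 higher genes were 306, 109, 48 and 197.

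**Figure D1:**
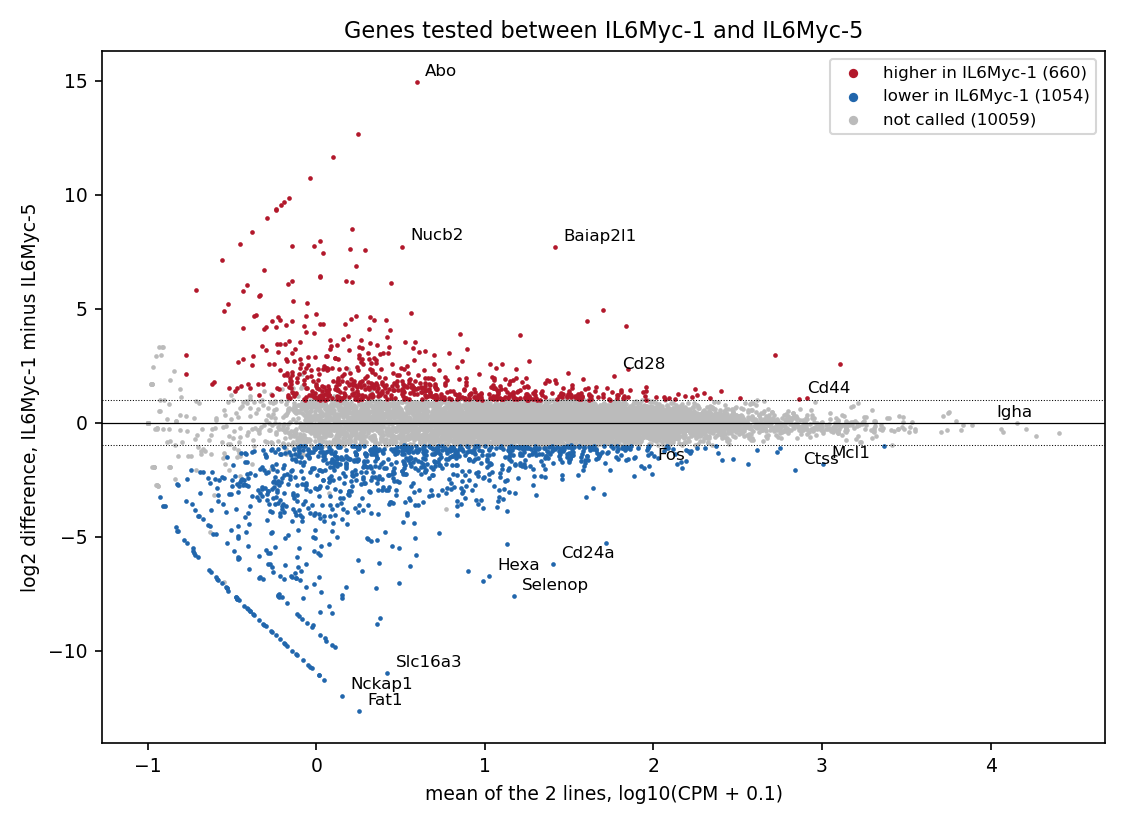
Log2 difference of each tested gene (y axis, IL6Myc-1 minus IL6Myc-5, from edgeR) against its mean level in both lines (x axis, log10 of CPM + 0.1). Red points are the 660 genes called higher in IL6Myc-1, blue points the 1054 called lower and grey points the genes not called. Dotted lines mark a 2-fold difference, and the diagonal strings of points at the left edge are genes with 0 or a few counts in 1 line.

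Many interferon response genes were lower in IL6Myc-1. These genes are switched on by STAT proteins and interferon regulatory factors and encode DNA sensors, antiviral GTPases and regulators of antigen presentation. Of 25 tested members (of 38 on the list), 12 were called lower in IL6Myc-1, 1 higher and 12 were not called, with a median log2 difference of -0.88. All 3 IL6Myc-1 libraries lay below all 3 IL6Myc-5 libraries for 21 of the 25. Across all genes tested, 8.95% were called lower, and for 66.9% the libraries of the lines did not overlap, in either direction.

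Ifi204, a DNA sensor of the interferon-inducible p200 family, had 9.52, 6.04 and 6.48 CPM in IL6Myc-1, against 47.4, 52.2 and 50.4 CPM in IL6Myc-5. The libraries were far apart, 6.8-fold on average (log2 difference -2.73 ± 0.13 SE, edgeR adjusted p = 2.36e-11). Its relatives Ifi207, Ifi203 and Ifi211 were lower as well, at 2.36, 0.964 and 1.43 CPM in IL6Myc-1 and 9.77, 5.07 and 9.13 CPM in IL6Myc-5, although reads of this family can be shared among its members. IL6Myc-2 held the least Ifi204 of the 5 lines, at 0.0523 CPM, so IL6Myc-1 was not the lowest line for this gene.

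The guanylate-binding proteins are GTPases that attack the vacuoles of intracellular pathogens, and Irgm1 is a further interferon-induced GTPase. Gbp7 had 5.59, 5.85 and 5.28 CPM in IL6Myc-1, against 26.8, 30.5 and 21.4 CPM in IL6Myc-5, and Irgm1 had 15.7, 16.1 and 16.7 CPM in IL6Myc-1, against 39.4, 37.4 and 38.0 CPM in IL6Myc-5. Neither gene had overlapping libraries, and their log2 differences were -2.23 ± 0.11 and -1.25 ± 0.05. Parp14, a mono-ADP-ribosyltransferase, averaged 1.68 ± 0.192 CPM in IL6Myc-1, against 15.3 ± 1.46 CPM in IL6Myc-5, 9.07-fold lower. Ifi44 was listed with 2 counts over the 3 libraries of IL6Myc-1 and averaged 8.71 ± 1.43 CPM in IL6Myc-5. Mx1, Gbp2, Gbp3 and Ifi27 complete the 12.

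Among the factors at the head of the pathway, Irf7 and Irf9 had log2 differences of -0.88 and -0.54, below the size threshold. The exception in direction was Oasl1, a member of the oligoadenylate synthetase family, which was higher in IL6Myc-1 at 1.27, 2.52 and 3.22 CPM, against 0.437, 0.424 and 0.493 CPM in IL6Myc-5. The classical targets Ifit1, Ifit2, Isg15 and Oas1a were at 0.303 CPM or less in both lines and were not tested.

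Interferon regulatory factors bind repeats of the letters GAAA, and the promoters of the called genes were therefore searched for GAAA, any 2 bases and GAAA again, on both strands, in the 250 bases before the start site. Promoter sequences came from RefSeq (GRCm38.p6) and were found for 9311 tested genes, of which 290 (3.11%) held the letters. Among the interferon list 11 of 20 members with a promoter held them (55%), namely 7 of the 8 called lower and 4 of the 12 others. Among all genes called lower the share was 6.11%, and among those called higher 2.44%. On the list of MHC class I and antigen processing genes described next, 2 of 18 members with a promoter held the letters (11.1%), B2m and H2-T23, and B2m was the only one of the 4 called lower to do so. A match is a description of the letters and not of a bound site, and it was not tested as a cause of any difference. The stretches around 5 of the matches are shown to let the repeats be compared, 5′ to 3′ on the strand of the gene, with the match in capitals. In Gbp7 the match is on the opposite strand and reads as its reverse complement.
Ifi207 (chr1:173741811-173741880, minus strand): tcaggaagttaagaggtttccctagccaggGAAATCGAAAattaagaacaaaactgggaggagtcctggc
Ifi211 (chr1:173913047-173913113, minus strand): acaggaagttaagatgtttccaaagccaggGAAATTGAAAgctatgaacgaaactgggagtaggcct
Gbp7 (chr3:142530253-142530322, plus strand): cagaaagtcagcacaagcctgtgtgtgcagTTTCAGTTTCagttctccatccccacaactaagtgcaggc
Irgm1 (chr11:48871421-48871474, minus strand): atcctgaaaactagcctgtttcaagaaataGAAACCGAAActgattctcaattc
B2m (chr2:122147518-122147587, plus strand): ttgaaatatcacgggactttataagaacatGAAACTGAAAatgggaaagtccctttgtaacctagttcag
In Ifi207 and Ifi211 the match in capitals begins 41 and 37 bases before the start site, in Irgm1 24, in Gbp7 53 and in B2m 139. Irgm1 holds 2 matches, and the one not in capitals overlaps the one that is.

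Antigen presentation through MHC class I, which displays peptides of cellular proteins to T cells, involved genes that were lower in IL6Myc-1 at each step, from the proteasome to the surface. All 20 tested members of the list had a negative log2 difference and libraries that did not overlap, and 6 of them were called lower and 0 higher, with a median of -0.63. Over all genes, libraries did not overlap for 66.9% and 8.95% were called lower. Psmb8, a catalytic subunit of the immunoproteasome, had 89.7, 90.0 and 82.2 CPM in IL6Myc-1, against 262, 266 and 310 CPM in IL6Myc-5. It was 3.2-fold lower (log2 difference -1.68 ± 0.06, edgeR adjusted p = 2.55e-13), and its partner Psmb9 was 2.55-fold lower. The peptide transporter subunit Tap2 averaged 29.2 ± 2.79 CPM in IL6Myc-1, against 77.3 ± 4.88 CPM in IL6Myc-5. Tapbp, the gene of the loading factor tapasin, averaged 60.5 ± 1.98 CPM in IL6Myc-1, against 166 ± 1.73 CPM in IL6Myc-5.

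B2m, the light chain of all class I molecules, had 383, 381 and 376 CPM in IL6Myc-1, against 793, 860 and 830 CPM in IL6Myc-5, and was 2.18-fold lower without overlap. Nlrc5, the transactivator of class I genes, averaged 12.6 ± 2.04 CPM in IL6Myc-1, against 27.8 ± 0.233 CPM in IL6Myc-5. The heavy chain genes H2-K1 and H2-D1 differed less, with log2 differences of -0.66 and -0.43, and the near-identical sequences of these loci leave the division of their reads uncertain. In the 3 other lines B2m lay at 508 to 1486 CPM and Psmb8 at 205 to 304 CPM, so IL6Myc-1 was the lowest of the 5 lines for both genes. It was not the lowest for Nlrc5, which lay at 9.4 CPM in IL6Myc-4, 13.8 CPM in IL6Myc-2 and 27.3 CPM in IL6Myc-3. Of 7 tested MHC class II genes, 2 were called lower (H2-DMa and Rfx5) and 1 higher (H2-Eb1, at 0.947 CPM in IL6Myc-1, against 0.419 CPM in IL6Myc-5). That is 42.9% called, against 14.6% of all genes.

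**Figure D2:**
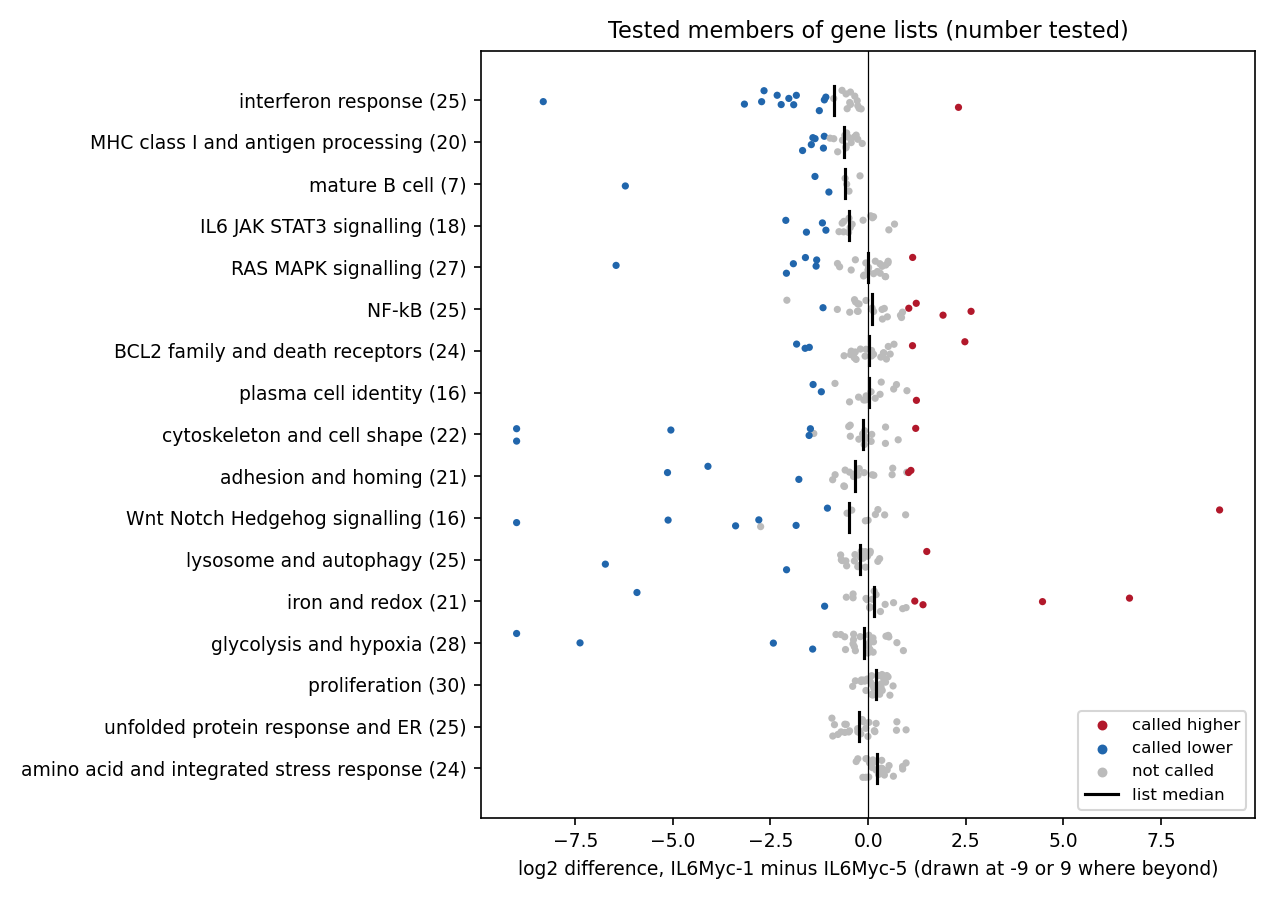
Log2 differences (x axis, IL6Myc-1 minus IL6Myc-5) of the tested members of 17 gene lists, 1 point per gene, with the number tested in brackets. Red points were called higher in IL6Myc-1, blue points lower, grey points were not called, and black bars are list medians. The interferon and MHC class I points lie almost wholly to the left of 0, while no member of the 3 lists at the bottom was called.

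Feedback and immediate-early genes of cytokine and growth factor signalling were among those lower in IL6Myc-1. Of 18 tested genes of the IL6, JAK and STAT3 list, 4 were called lower and 0 higher (22.2% called, against 14.6% of all genes; median -0.49). Socs3, the feedback inhibitor induced by STAT3, had 3.97, 3.29 and 4.08 CPM in IL6Myc-1, against 17.95, 16.2 and 14.8 CPM in IL6Myc-5. It was 4.32-fold lower with no overlap (log2 difference -2.11 ± 0.11, edgeR adjusted p = 5.88e-11). Socs2, Bcl6 and Jak3 were 3.03-fold, 2.26-fold and 2.11-fold lower. The receptor genes Il6ra and Il6st had log2 differences of -0.62 and 0.53, and Stat3 -0.46, all under the size threshold.

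Of 27 tested genes of RAS and MAPK signalling, 6 were called lower and 1 higher (25.9% called, against 14.6% of all genes), and the median was -0.00 (0.08 when libraries were scaled by their totals alone). Fos, an immediate-early transcription factor gene, had 43.9, 50.4 and 51.6 CPM in IL6Myc-1, against 187, 184 and 176 CPM in IL6Myc-5. It was 3.75-fold lower, and the 3 other lines, at 42.3 to 51.8 CPM, lay with IL6Myc-1. Jund, its partner in the AP-1 dimer, averaged 153 ± 13.5 CPM in IL6Myc-1, against 384 ± 19.2 CPM in IL6Myc-5. Dusp6 and Dusp5, phosphatases that switch off ERK, averaged 7.92 ± 0.125 and 61.0 ± 2.99 CPM in IL6Myc-1, against 24.1 ± 1.61 and 151 ± 5.27 CPM in IL6Myc-5.

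Spry1 and Egr1, the remaining called members that were lower, were below 2 CPM in both lines. Nras, the called gene in the other direction, had 154, 156 and 148 CPM in IL6Myc-1, against 65.4, 69.4 and 73.3 CPM in IL6Myc-5. Its libraries did not overlap (log2 difference 1.14 ± 0.05).

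Of 25 tested NF-kB genes, 4 were called higher in IL6Myc-1, 1 lower and 20 were not called, with a median of 0.10. Over all genes 5.61% were called higher and 8.95% lower. Nfkbia, the inhibitor that NF-kB itself induces, had 62.1, 65.1 and 64.4 CPM in IL6Myc-1, against 25.1, 25.9 and 30.2 CPM in IL6Myc-5. It was 2.36-fold higher without overlap (log2 difference 1.23 ± 0.07, edgeR adjusted p = 7.88e-11). Tnfaip3, the ubiquitin-editing inhibitor A20, was 3.8-fold and the adaptor gene Traf1 6.32-fold higher. Relb had a log2 difference of 1.04, which became 0.93 or 0.97 when the second replicate of IL6Myc-1 or of IL6Myc-5 was left out. Tnf was called lower at under 1 CPM in both lines.

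The survival genes of the BCL2 family were divided between the lines. Mcl1 had 533, 551 and 522 CPM in IL6Myc-1, against 1844, 1949 and 1921 CPM in IL6Myc-5, 3.56-fold lower (log2 difference -1.83 ± 0.04, edgeR adjusted p = 4.65e-15). The groups were far apart, and the 3 other lines, at 463 to 646 CPM, lay with IL6Myc-1. Bcl2 was 2.19-fold higher in IL6Myc-1, at 25.8, 25.6 and 26.6 CPM, against 12.02, 12.96 and 10.6 CPM in IL6Myc-5. Bcl2l1, which encodes BCL-XL, and Bcl2l11, which encodes the death-promoting BIM, had log2 differences of 0.66 and 0.57 and were not called.

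Of 24 tested members of the BCL2 and death receptor list, 2 were called higher (Bcl2 and Casp4) and 3 lower, Mcl1 and Bik among them. That is 20.8% called, against 14.6% of all genes. Casp4, an inflammatory caspase gene, averaged 7.81 ± 1.14 CPM in IL6Myc-1, against 1.41 ± 0.295 CPM in IL6Myc-5. Among tumour suppressors 2 of 24 were called lower (Fat1 and Dnmt3a) and 1 higher (12.5% called, near the 14.6% of all genes). The higher one was Cdkn1c, at 0.7 CPM in IL6Myc-1, against 0.113 CPM in IL6Myc-5. Trp53 and Cdkn2a had log2 differences of -0.12 and 0.34.

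**Figure D3:**
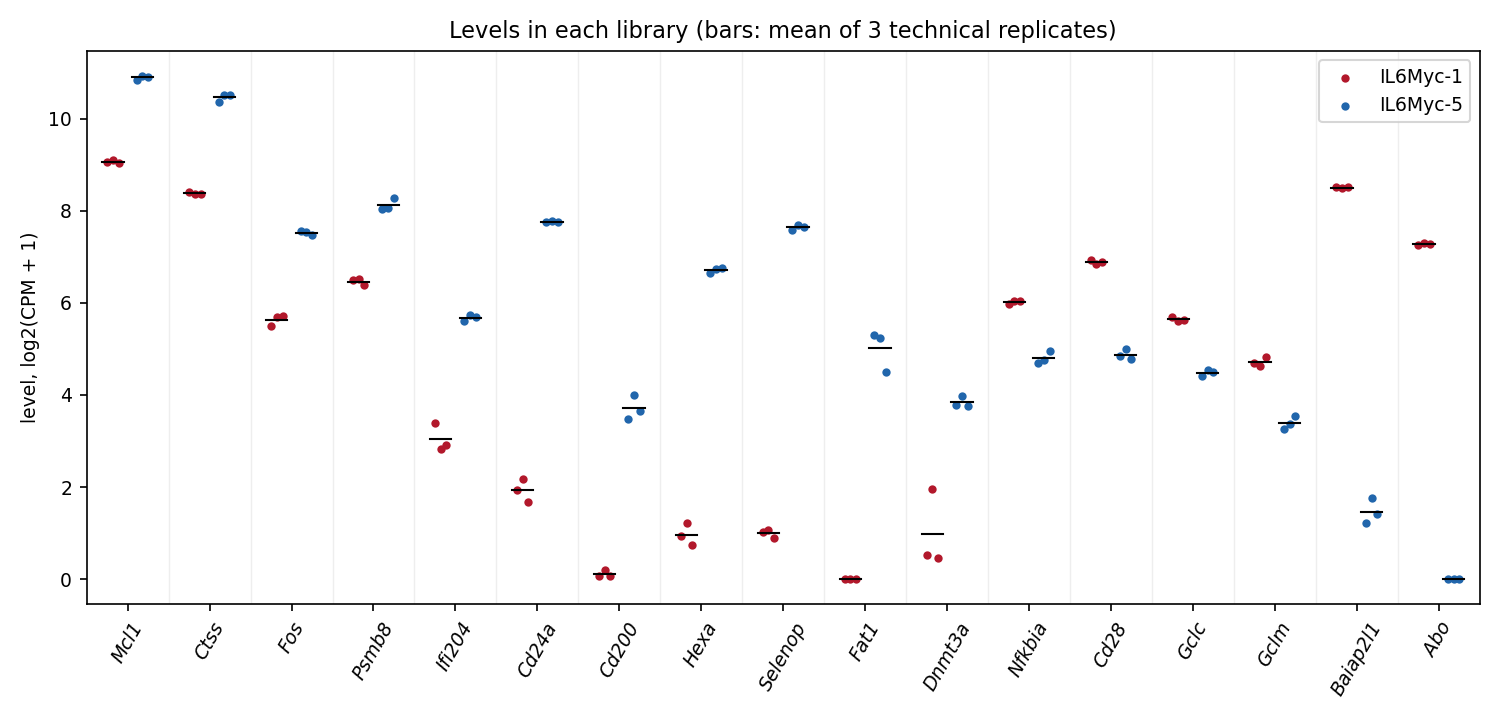
Levels of 17 genes in each library (y axis, log2 of CPM + 1), with the 3 IL6Myc-1 libraries in red on the left and the 3 IL6Myc-5 libraries in blue on the right of each gene, and bars at the mean of the plotted values. The 11 genes from Mcl1 to Dnmt3a are lower in IL6Myc-1 and the 6 from Nfkbia to Abo are higher, and for each gene the lines do not overlap.

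Several surface molecules that mark B cells or serve as treatment targets differed. Cd24a, a surface glycoprotein of early B cells, had 2.84, 3.52 and 2.21 CPM in IL6Myc-1, against 214, 218 and 214 CPM in IL6Myc-5, and was 75.3-fold lower. Cd200, an inhibitory ligand for immune cells, averaged 0.0824 ± 0.0611 CPM in IL6Myc-1, against 12.3 ± 2.5 CPM in IL6Myc-5. Of 7 tested mature B cell genes, Cd24a, Ebf1 and Cd79b were called lower and 0 higher (median -0.59). That is 42.9% called, against 14.6% of all genes. Cd79b, a signalling chain of the B cell receptor, sat just past the size threshold at -1.004, and moved to -0.94 or -0.97 without the first IL6Myc-1 or the third IL6Myc-5 library. The defining B cell genes Pax5 and Cd22 were at 0.0487 CPM or less in both lines.

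Cd28, a costimulatory receptor of T cells that plasma cells also carry, had 121, 115 and 118 CPM in IL6Myc-1, against 27.7, 31.0 and 26.6 CPM in IL6Myc-5. It was 4.15-fold higher with no overlap (log2 difference 2.06 ± 0.05). Tnfrsf17, which encodes the treatment target BCMA, was 2.37-fold higher, at 47.6 ± 3.5 CPM in IL6Myc-1, against 20.1 ± 1.51 CPM in IL6Myc-5. Slamf7 and Cd38, further antibody targets, had log2 differences of 0.65 and 0.31 and were not called. Of 16 plasma cell genes, Tnfrsf17 was called higher and Derl3 and Fkbp11, of the endoplasmic reticulum, lower, at 57.2 ± 2.81 and 60.2 ± 1.28 CPM in IL6Myc-1, against 151 ± 11.5 and 138 ± 7.18 CPM in IL6Myc-5.

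Among markers of other cell types, Cd3g and Cd3d, chains of the T cell receptor complex, were called higher in IL6Myc-1, at 12.5 ± 1.59 and 0.793 ± 0.114 CPM, against 1.43 ± 0.195 and 0.0954 ± 0.0368 CPM in IL6Myc-5, and Cd4 lower, at 0.231 CPM in IL6Myc-1, against 0.897 CPM in IL6Myc-5. The 12 T and NK cell markers summed to 13.6 to 16.9 CPM in IL6Myc-1 and to 3.98 to 4.66 CPM in IL6Myc-5, and Cd3g made up most of the sum in IL6Myc-1. Cd3e was at 0.0459 CPM in IL6Myc-1, against 0.0398 CPM in IL6Myc-5, and Gzmb, Nkg7 and Ncr1 had 0 counts in both lines. The 14 myeloid markers summed to 197 to 207 CPM in IL6Myc-1 and to 203 to 217 CPM in IL6Myc-5, carried by Cd68 and C1qb, while defining myeloid genes such as Lyz2, Cd14 and Csf1r were at 0.0288 CPM or less. Fcgr4, an Fc receptor gene, was called lower, at 2.71 ± 0.307 CPM in IL6Myc-1, against 9.03 ± 0.7 CPM in IL6Myc-5, and Mpo, the neutrophil peroxidase gene, higher, at 1.37 ± 0.435 CPM in IL6Myc-1, against 0.506 ± 0.148 CPM in IL6Myc-5. The part of other cell types in the results was not tested. In bulk libraries fewer cells of a type and less RNA per cell cannot be told apart.

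A pair of adhesion genes that help to hold plasma cells in the marrow was higher in IL6Myc-1. Cd44, the hyaluronan receptor, had 1062, 1040 and 1040 CPM in IL6Myc-1, against 498, 534 and 500 CPM in IL6Myc-5. Itga4, a chain of the VLA-4 integrin, had 343, 305 and 300 CPM, against 144, 164 and 136 CPM in IL6Myc-5. Both were about as far apart (2.05-fold and 2.13-fold higher), with no overlap. Itgb3, the integrin beta 3 chain, went the other way, at 0.35 ± 0.129 CPM in IL6Myc-1, against 11.6 ± 0.525 CPM in IL6Myc-5. With Ccr10 and Cxcr3, the list of 21 tested genes had 2 called higher and 3 lower (median -0.32). That is 23.8% called, against 14.6% of all genes.

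Genes of cell shape included the 2 lowest of all ranked differences. Fat1, an atypical cadherin, had 0 counts in the 3 IL6Myc-1 libraries, against 38.6, 36.8 and 21.5 CPM in IL6Myc-5, and was at least 972-fold lower, set against the floor of 3 counts per line. Nckap1, a subunit of the WAVE complex that drives actin branching, likewise had 0 counts in IL6Myc-1, against 19.4, 21.5 and 19.1 CPM in IL6Myc-5 (at least 601-fold lower). Its blood cell relative Nckap1l had a log2 difference of -0.46, at 73.2 CPM in IL6Myc-1, against 100 CPM in IL6Myc-5. Rhoh, Lmna and Actn1 were also called lower and Myo1g higher, in all 5 lower and 1 higher of 22 tested. That is 27.3% called, against 14.6% of all genes.

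Other genes had 0 counts in every IL6Myc-1 library and a clear level in IL6Myc-5. They included Mfge8, which bridges dying cells to phagocytes (at least 370-fold lower), Klk4, a serine protease (at least 321-fold), Efhd2, Enpp4, Sgce, Igfbp2 and the T cell glycoprotein gene Cd6 (at least 169-fold). Dek, a widely expressed chromatin gene, had 0 counts in IL6Myc-1, against 7.76, 9.45 and 8.91 CPM in IL6Myc-5, and was also listed at 0 in IL6Myc-2. In all, 59 called genes had 0 counts in all IL6Myc-1 libraries and 14 in all IL6Myc-5 libraries. Some widely expressed genes were near 0 in both lines, such as Jak1 with 4 counts each, so a level of 0 here is a statement about the deposited values and does not show that a transcript is absent.

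Signalling genes of the Notch, Hedgehog and Wnt pathways were also unevenly held. Notch3, a Notch receptor, averaged 0.285 ± 0.0552 CPM in IL6Myc-1, against 10.5 ± 0.729 CPM in IL6Myc-5, and Gli2, a Hedgehog transcription factor, had 0 counts, against 4.18, 4.41 and 3.57 CPM in IL6Myc-5. In IL6Myc-2, IL6Myc-3 and IL6Myc-4 Gli2 lay at 0.0256 CPM or less, which leaves IL6Myc-5 as the line with the transcript. Lrp5, a Wnt co-receptor, was 10.2-fold lower in IL6Myc-1. Fzd6, a Wnt receptor, had 8.22, 8.6 and 8.26 CPM in IL6Myc-1 and 0 counts in IL6Myc-5. The list had 6 called lower and 1 higher of 16 tested (43.8% called, against 14.6% of all genes).

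The DNA methyltransferases that set new methylation were lower in IL6Myc-1, whereas the maintenance enzyme was not. Dnmt3a had 0.439, 2.91 and 0.384 CPM in IL6Myc-1, against 12.9, 14.8 and 12.6 CPM in IL6Myc-5. The second IL6Myc-1 library stood above the other two, but the lines did not overlap (log2 difference -3.50 ± 0.38, edgeR adjusted p = 5.59e-07). Dnmt3b averaged 0.157 ± 0.116 CPM in IL6Myc-1, against 1.93 ± 0.374 CPM in IL6Myc-5, and Dnmt1 had a log2 difference of 0.12. The 3 other lines held Dnmt3a at 9.54 to 14.5 CPM, so IL6Myc-1 was the line that stood apart for this gene. Dnmt3b was lowest in IL6Myc-2, at 0.0374 CPM, and lay at 0.579 CPM in IL6Myc-4 and 4.96 CPM in IL6Myc-3.

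Hexa, a chain of a lysosomal hexosaminidase, had 0.901, 1.34 and 0.672 CPM in IL6Myc-1, against 99.0, 105 and 108 CPM in IL6Myc-5, 107-fold lower. Its level in the 3 other lines was 74.0 to 163 CPM. Of 25 lysosome and autophagy genes tested, 2 were called lower (Hexa and Ctss) and 1 higher (median -0.20). That is 12% called, near the 14.6% of all genes. Selenop, a secreted selenium carrier, had 1.04, 1.11 and 0.865 CPM in IL6Myc-1, against 191, 207 and 198 CPM in IL6Myc-5, a gap with no overlap.

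Of 21 iron and redox genes, 4 were called higher in IL6Myc-1 and 2 lower (28.6% called, against 14.6% of all genes). Gclc and Gclm, picked out after their values were seen, encode the catalytic and modifier subunits of the rate-limiting enzyme of glutathione synthesis, and both were higher. Gclc had 50.9, 47.4 and 48.4 CPM in IL6Myc-1, against 20.1, 22.5 and 21.6 CPM in IL6Myc-5, and Gclm 24.9, 23.9 and 27.2 CPM, against 8.56, 9.35 and 10.7 CPM in IL6Myc-5. The cystine transporter Slc7a11 and the regulator Nfe2l2 had log2 differences of 0.89 and 0.97, just under the size threshold. Sod2, the mitochondrial superoxide dismutase, was lower, at 44.8 CPM in IL6Myc-1, against 97.4 CPM in IL6Myc-5. Among glycolysis and hypoxia genes, 0 of 28 were called higher and 4 lower (14.3% called, near the 14.6% of all genes). The lactate exporter Slc16a3 was listed with 2 counts in IL6Myc-1 and at 61.6, 60.2 and 44.2 CPM in IL6Myc-5.

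Few genes were as strongly higher in IL6Myc-1. Abo, the glycosyltransferase of the ABO blood group in humans, had 153, 157 and 155 CPM in IL6Myc-1 and 0 counts in IL6Myc-5, at least 3631-fold higher. The 3 other lines held 1 count of it between them. Baiap2l1, an adaptor that bends membranes at actin-rich sites, had 366, 358 and 363 CPM in IL6Myc-1, against 1.31, 2.39 and 1.67 CPM in IL6Myc-5, and its means were at 0.711 CPM or less in the other lines (202-fold higher). Nucb2, a calcium-binding protein, was 210-fold higher at 37.3 ± 3.19 CPM in IL6Myc-1, against 0.178 ± 0.121 CPM in IL6Myc-5. Also among the 15 highest were Col6a4, Defb4, Bmyc, Xlr4a and the olfactory receptor gene Olfr901. Mgmt, a DNA repair enzyme that removes alkyl groups and was named after its values were seen, had 60.8, 62.5 and 58.4 CPM in IL6Myc-1, against 4.06, 4.04 and 4.44 CPM in IL6Myc-5.

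On the lists of proliferation, the unfolded protein response and the integrated stress response, no gene passed both thresholds, against 14.6% of all genes. Of 30 proliferation genes 0 were called in either direction by edgeR or by DESeq2 (median 0.21). At any size, 18 of them passed edgeR's adjusted p as higher in IL6Myc-1 and 4 as lower. Over all genes 65.5% passed it, in either direction. Mki67 and Top2a had log2 differences of 0.11 and -0.18. Of 25 genes of the unfolded protein response 0 were called by either tool (median -0.23), while 6 passed edgeR's adjusted p as higher and 16 as lower. Of 24 genes of amino acid supply and the integrated stress response 0 were called by either tool (median 0.24). For these, 16 passed edgeR's adjusted p as higher and 3 as lower. Trib3, a stress-induced pseudokinase on both of these lists, lay just under the size threshold with a log2 difference of 0.97 and was called higher with scaling by library totals alone or when the first IL6Myc-1 or the third IL6Myc-5 library was left out. Ccnd2, a D-type cyclin gene, averaged 1871 ± 10.6 CPM in IL6Myc-1, against 1172 ± 33.5 CPM in IL6Myc-5, with a log2 difference of 0.67.

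The called genes were not spread evenly along the chromosomes. Genes with at least 5 CPM in the higher line (9541 genes, 3.74% called higher and 5.81% lower) were put in chromosomal order, and stretches of at least 30 genes whose running median over 21 genes was at least 0.5 away from 0 were recorded. The rule was set after values had been seen, so the stretches are a description with no test, and DNA copy number was not measured. The rule found 5 stretches with 277 genes, of which 18 were called higher and 69 lower.

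On chromosome 3, 45 neighbouring genes from Mrpl9 to H2ac18 held 31 called lower and 0 called higher, and 44 had a negative difference. Their median was -1.45, while the 413 other genes of the chromosome had a median of 0.40. IL6Myc-5 was the line that stood apart: it lay above all 12 libraries of the other 4 lines for 39 of the 45, with a median of 1.47 over the other 3 lines, where IL6Myc-1 had a median of 0.11. Mcl1 lies in this stretch. In humans MCL1 is on the long arm of chromosome 1, a region often gained in myeloma.

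Several neighbours of Mcl1 were also lower in IL6Myc-1, in a stretch that was picked by the running median of these same differences. Ctss, the lysosomal protease cathepsin S, had 340, 330 and 329 CPM in IL6Myc-1, against 1311, 1472 and 1466 CPM in IL6Myc-5, 4.25-fold lower. Prpf3 and Sf3b4 of the spliceosome averaged 33.8 ± 2.72 and 72.8 ± 5.78 CPM in IL6Myc-1, against 173 ± 15.3 and 257 ± 26.9 CPM in IL6Myc-5. Aph1a, a subunit of gamma-secretase, was 3.93-fold lower, Anp32e, a histone chaperone, 3.47-fold, and Arnt, the partner of hypoxia-inducible factors, 2.39-fold. The largest difference of those named was that of Selenbp1, 7.58-fold lower at 4.69 ± 0.518 CPM in IL6Myc-1, against 35.5 ± 1.8 CPM in IL6Myc-5. Txnip, just beyond the end of the stretch, averaged 1273 ± 8.55 CPM in IL6Myc-1, against 1518 ± 31.9 CPM in IL6Myc-5, a log2 difference of -0.25.

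The next stretch along, 34 genes from Pias3 to Magi3, had the opposite sign, with 8 called higher, 0 lower and a median of 0.63, against 0.31 elsewhere on the chromosome. Nras is one of its genes. Here IL6Myc-5 was below all 12 libraries of the other lines for 18 genes and IL6Myc-1 above all of its 12 for 16.

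**Figure D4:**
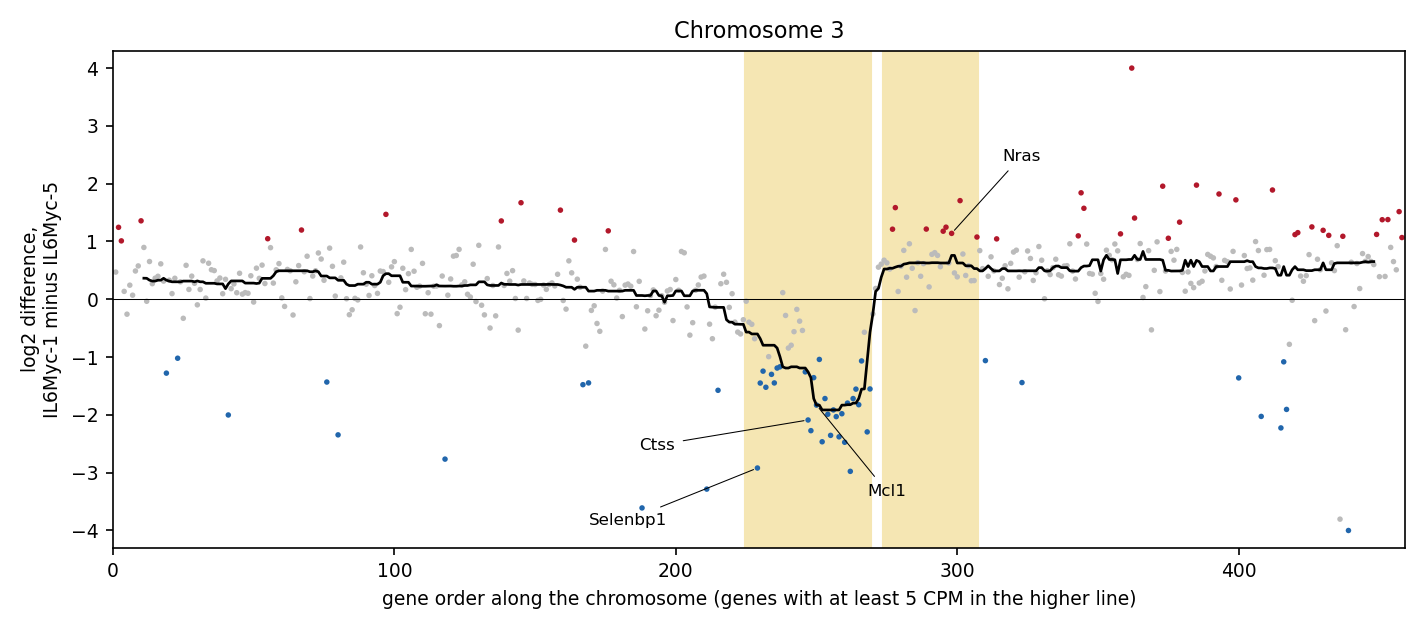
Log2 difference (y axis, IL6Myc-1 minus IL6Myc-5, points beyond 4 drawn at 4) of genes in their order along chromosome 3 (x axis), with the running median over 21 genes as a black line, called genes in red (higher) and blue (lower) and the 2 stretches shaded. The running median drops below -1.5 around Mcl1 and Ctss and returns above 0.5 before Nras.

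The longest stretch lay on chromosome 17, where 135 genes from Dynlt1a to Fam234a held 32 called lower and 0 higher, and 133 had a negative difference. Their median was -0.80, while the 378 other genes of the chromosome had a median of -0.03. Here IL6Myc-1 was the line that stood apart, below all 12 libraries of the other lines for 109 of the 135. The stretch includes Ezr, a linker of membrane and actin, at 62.2 CPM in IL6Myc-1, against 183 CPM in IL6Myc-5, the splicing factor Srrm2 at 169.8 CPM in IL6Myc-1, against 521 CPM in IL6Myc-5, and Sod2. It also includes Tsc2, the inhibitor of mTOR signalling, at 18.5 ± 1.75 CPM in IL6Myc-1, against 38.5 ± 5.06 CPM in IL6Myc-5, whose log2 difference of -1.05 became -0.98 or -0.93 without the third IL6Myc-1 or the third IL6Myc-5 library.

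Shorter stretches were found on chromosome 2, with 33 genes from Npepl1 to Taf4 (10 called higher, 0 lower, median 0.79, against 0.34 elsewhere on it), and on chromosome 8. Most of the chromosome 2 genes are predicted (Gm) or zinc finger (Zfp) entries at low levels, and so are most of those called. An example is Gm14322, at 8.58 CPM in IL6Myc-1, against 2.83 CPM in IL6Myc-5. Reads of close relatives among them can be shared, so they may not count as separate genes. The 30 genes from Ddx49 to Nr2f6 on chromosome 8 had 0 called higher and 6 lower, Jund among them, and a median of -0.69, against -0.41 for the rest of that chromosome. Whole chromosomes were shifted too, with medians of -0.41 for chromosome 8, -0.40 for 14, 0.35 for 2, 0.31 for 3 and 0.26 for 1. B2m lies on chromosome 2, Nlrc5 on chromosome 8, and Psmb8 and Psmb9 on chromosome 17, which had a median of -0.20. Whether these shifts bear on the levels of the MHC class I genes was not tested.

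**Figure D5:**
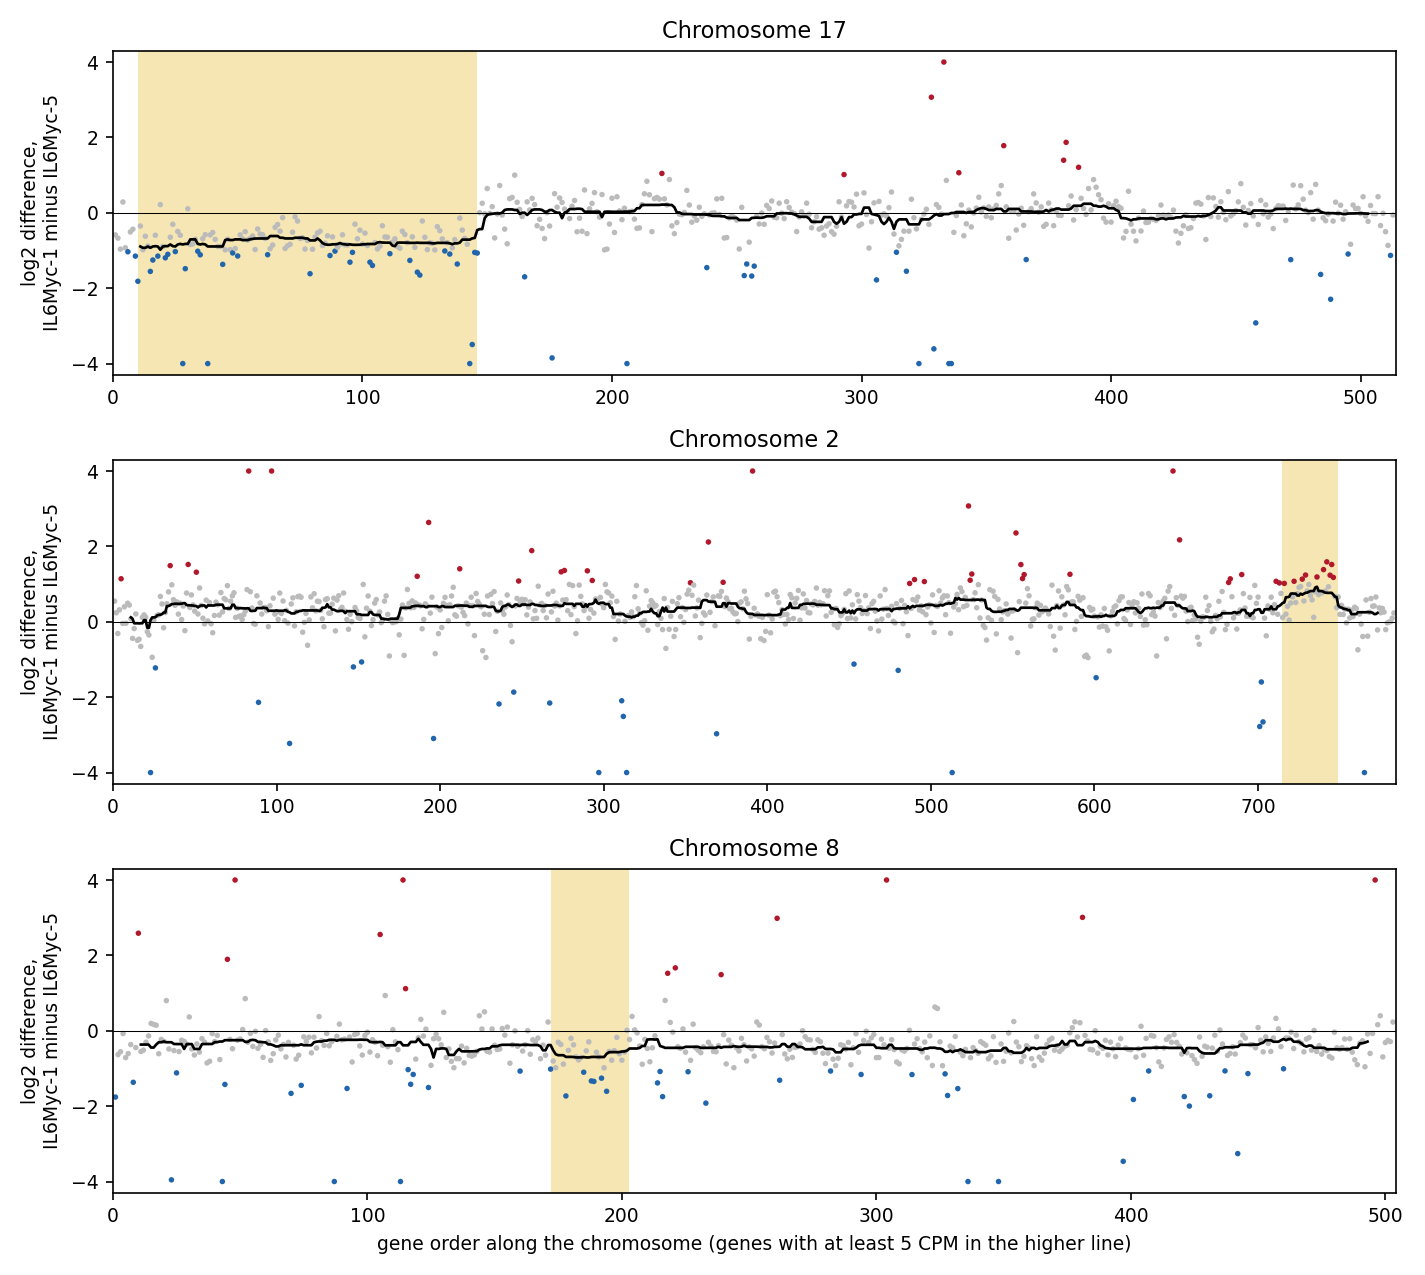
Log2 difference (y axis, IL6Myc-1 minus IL6Myc-5, points beyond 4 drawn at 4) of genes in their order along chromosomes 17, 2 and 8 (x axis), with running medians over 21 genes in black, called genes in red (higher) and blue (lower) and the stretches shaded. On chromosome 17 the running median is near -0.80 through the 135 genes of the stretch and close to 0 beyond it.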

How the data were processed

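Per the labels' protocols, TruSeq Stranded Total RNA libraries were made from RNA isolated with the RNeasy mini kit, with 3 technical replicates for each of 5 mouse myeloma cell lines. The submitters' processing notes name the GRCm39 build, Trim Galore 0.4.0 and DESeq2, the last with no version. Which aligner, quantifier and annotation were used is not given in the sources used here. Although its name says TPM, the deposited table holds estimated counts: columns sum to 19068543 to 41165599 and not to 1 total, and 30.8% to 54.3% of the values between 0 and 1.5 lie within 0.02 of 1. A further deposited column, the mean of the 15 libraries, was not used. If a quantifier corrected these counts for transcript length, the correction is carried into the levels.

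The 32434 entries were rounded to whole numbers, and the 11773 genes that reached 1 CPM in 3 or more libraries were tested with edgeR 4.0.16 (glmQLFit and glmQLFTest, R 4.3.3) on TMM library sizes, with all 15 libraries and the cell line as the single factor, and the contrast IL6Myc-1 minus IL6Myc-5. A call needed both a p under 0.05 after Benjamini-Hochberg adjustment over all genes tested and a log2 difference of 1 or more in either direction. Alternatives used limma 3.58.1, DESeq2 1.42.0, other scalings and filters, and each replicate left out. On simulated counts for this comparison over 11773 genes, the adjusted p and the sign were right for 96 of 100 genes with a 2-fold change, of which 45 passed the size threshold too, 99 of 100 with a 4-fold change were called, and 2 of 11573 unchanged genes were called. A 2-fold change lies on the size threshold itself. The simulated lines shared 1 mean per gene apart from the changed genes, whereas 65.5% of the real genes passed the adjusted p. The simulation therefore does not give the rate of false calls in the real data. Replicates differed by more than sampling noise (chi-square per degree of freedom 7.25 to 15.5 within IL6Myc-1 and 9.61 to 20 within IL6Myc-5) and were kept apart.

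The members and the gene lists were chosen with earlier results of these data known. Named genes are the 15 highest and 15 lowest differences among called genes without overlap and with at least 5 CPM in the higher line, up to 4 called members per list, a fixed set of myeloma genes, called markers of other cells and the top V segments. Beyond these, genes were named after their values were seen: among others Selenop, Mgmt, Irf7, Irf9, Txnip, Trib3 and genes of the chromosome stretches. Predicted genes were left out of the ranking. Chromosomes and gene order came from a RefSeq table of GRCm38.p6, matched by symbol without regard to case (32226 entries, 99.4%). Since this is not the build of the submitters, it gave names and neighbours and the promoter sequences only. Results for a few genes are not reported here.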

Additional observations from a re-analysis of the deposited data

How the results depend on the processing

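The number of called genes ranged from 1697 to 1716 with the 6 libraries alone, a replicate block (1709), RLE size factors, library totals alone or DESeq2, and was 2400 without a filter on low values. It fell outside 1.5 times the main count in these cases: 1042 (378 higher and 664 lower) with a filter of 5 CPM, which tests 9932 genes, 1138 (427 higher) with limma on log2(CPM + 1), 483 (162 higher and 321 lower) with limma on log2(CPM + 5), and 1081 (358 higher) with edgeR's glmTreat, which tests against the 2-fold threshold itself. A larger pseudocount shrinks the differences of low genes by construction. Leaving out each replicate gave 1694 to 1748 called genes, 644 to 683 higher and 1039 to 1065 lower. In none of these 16 alternatives was a gene called in the direction opposite to the main result. Of 154 called named genes, 38 lost the call with limma on log2(CPM + 5), 16 with glmTreat and 12 with limma on log2(CPM + 1), and at most 3 with any other alternative that tested them. The replicate block is not a pairing from the labels: same-numbered libraries of the lines deviated together with correlations of -0.0607, 0.00497 and 0.0886, and the block gave 660 genes higher in IL6Myc-1 and 1049 genes lower in IL6Myc-1. Scaling by library totals alone moved the median of all genes to 0.07.

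The comparison is of 1 cell line with another. It holds technical replicates only, so it does not show what separates mice, tumours or genotypes. A level of 0 has a limit of 0.0332 CPM for IL6Myc-1 and 0.0427 CPM for IL6Myc-5, and estimated counts of close relatives can be shared among them.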

Other observations

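Of 23 tested genes of sterol and fatty acid synthesis 2 were called higher in IL6Myc-1 and 1 lower (13.04% called, against 14.6% of all genes; median 0.29). Elovl6, a fatty acid elongase, averaged 90.1 ± 6.68 CPM in IL6Myc-1, against 35.9 ± 2.85 CPM in IL6Myc-5, and Scd1, a desaturase, averaged 73.6 ± 4.33 CPM in IL6Myc-1, against 34.1 ± 5.84 CPM in IL6Myc-5. Of 14 bone disease and cytokine genes 2 were called higher and 3 lower (35.7% called, against 14.6% of all genes). Tgfbr2, a receptor chain for TGF-beta, had 30.1, 31.0 and 30.9 CPM in IL6Myc-1, against 11.5, 10.7 and 8.69 CPM in IL6Myc-5, while its ligand Tgfb1 was 3.03-fold lower, at 3.38 ± 0.632 CPM in IL6Myc-1, against 10.2 ± 1.39 CPM in IL6Myc-5. Ccl3, a chemokine that promotes bone resorption, averaged 3.49 ± 0.112 CPM in IL6Myc-1 and was listed with 3 counts in IL6Myc-5.

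Of 24 genes of PI3K, AKT and mTOR signalling 4 were called lower and 0 higher (16.7% called, against 14.6% of all genes; median -0.12), by edgeR's quasi-likelihood test. Pik3cb, the beta catalytic subunit, had 1 count in IL6Myc-1 and 33 counts in IL6Myc-5, whereas the 3 other lines held 6.7 to 10.5 CPM. Inpp4b, a phosphatase that opposes the pathway, averaged 0.323 ± 0.114 CPM in IL6Myc-1, against 4.06 ± 0.611 CPM in IL6Myc-5. Of 8 immunoglobulin constant genes 2 were called higher (Iglc2 and Ighd) and 0 lower (25% called, against 14.6% of all genes). Iglc2 was at 77.8, 79.0 and 78.8 CPM in IL6Myc-1 and 27.0, 24.8 and 27.2 CPM in IL6Myc-5.

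The Y-linked genes Ddx3y and Eif2s3y had 0 counts in all 6 libraries of both lines, while the 3 other lines held Ddx3y at 25.6 to 47.6 CPM and Eif2s3y at 42.2 to 84.4 CPM. Kdm5d and Uty, also on the Y chromosome, were not at 0, at 1.4 and 3.26 CPM in IL6Myc-1, against 1.79 and 1.72 CPM in IL6Myc-5. Xist, the transcript of the inactive X, averaged 1.58 ± 0.319 CPM in IL6Myc-1, against 0.972 ± 0.337 CPM in IL6Myc-5.

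Of 20 therapy target and checkpoint genes 3 were called in each direction, of 22 p53 targets 1 higher (Plk2) and 0 lower, and of 11 B cell receptor genes 1 lower (Bank1). These lists had 30%, 4.55% and 9.09% called, in that order, against 14.6% of all genes. Of 16 myeloma oncogenes Bcl2 was called higher and Mcl1 lower (12.5% called). Of 23 chromatin genes 1 was called higher (Hdac9, at 29.5 ± 0.726 CPM in IL6Myc-1, against 7.7 ± 1.43 CPM in IL6Myc-5) and 3 lower (17.4% called). Of 13 mitochondrial transcripts ND6 was called higher, with a log2 difference of 1.09 that became 0.93 without the third IL6Myc-5 library. Pecam1 was the single stromal and endothelial marker tested and was not called, and of the erythroid and megakaryocyte markers Itga2b was tested and called lower, at 1.75 ± 0.188 CPM in IL6Myc-1, against 5.69 ± 0.755 CPM in IL6Myc-5. Col3a1, Dcn, Cdh5 and Kdr had 0 counts in both lines.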
